A study of Mus musculus with 8 samples.

Results

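Dermal fibroblasts, the collagen-producing cells of the skin beneath the epidermis, were examined among sorted mesenchymal cells of mouse forelimbs at embryonic day 16.5 (E16.5). Their members were chosen from the measured values. A cell counted as a dermal fibroblast when it held at least 3000 unique molecular identifiers (UMIs, each marking 1 captured transcript), at most 10% mitochondrial UMIs, and at least 1 UMI in 4 or more of 7 genes, *Rspo1*, *En1*, *Lef1*, *Nkd2*, *Axin2*, *Irx1* and *Col7a1*. This rule held for 2322 of the 19556 filtered E16.5 cells, 1121 of 11109 in the proximal library and 1201 of 8447 in the distal library. The series held 53085 filtered cells in 8 libraries.

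Both libraries came from C57BL/6J embryos labelled Hic1 CreERT2/CreERT2; Rosa26 LSLtdTomato/tdTomato, whose dams were given 7.5 mg tamoxifen at embryonic day 10. The tdTomato reporter therefore marks cells that expressed *Hic1*, a transcriptional repressor gene, around that time and the cells that descend from them, and the sort was for cells of that lineage. Every embryo carried the CreERT2 insertion on both *Hic1* alleles, so no *Hic1* wild type cells were compared. The proximal library held the segment of the distal stylopod, the elbow and the proximal zeugopod, and the distal library held the distal zeugopod with the autopod (the hand). According to the study's methods, forelimb pairs were pooled and tdTomato+ cells were sorted after excluding cells that carried blood or endothelial surface markers. Each segment was 1 library, so there was no spread between replicates and no test was made. Every interval is a 95% interval that covers only counting error, and all are exact except that of the difference between the segments' shares. The segments also differed in the software version that counted them (Cell Ranger 3.0.2 for proximal, 6.0.1 for distal), and segment, library and version cannot be told apart.

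Wnt ligands released by the epidermis stabilise β-catenin in the mesenchyme beneath it, where β-catenin and transcription factors of the TCF/LEF family switch on target genes. This signal is required for embryonic dermis to form, and *Twist2* (also called Dermo1) and *Lef1* are long-known genes of that tissue. Several targets of the pathway encode its own brakes, among them *Axin2*, *Nkd1*, *Nkd2* and *Dkk1*. The selection rule thus used target genes of this pathway, and a high level of other targets in the selected cells is a description of the selection as much as of the tissue.

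The letters that TCF/LEF proteins bind best are CTTTGAT and CTTTGTT, and both were searched on either strand in the 250 bases before each gene start in the RefSeq annotation of GRCm38.p6. The windows of 2 genes of the pathway that were higher in dermal fibroblasts are shown because they hold a match, which is given in capitals. The *Sp5* window lies at chr2:70474673-70474922 on the plus strand, with CTTTGTT in reverse (AACAAAG) 222 bases and CTTTGAT 104 bases before the start. The *Dkk1* stretch of 27 bases lies at chr19:30549578-30549604 on the minus strand, with CTTTGTT 98 bases before the start.
Sp5: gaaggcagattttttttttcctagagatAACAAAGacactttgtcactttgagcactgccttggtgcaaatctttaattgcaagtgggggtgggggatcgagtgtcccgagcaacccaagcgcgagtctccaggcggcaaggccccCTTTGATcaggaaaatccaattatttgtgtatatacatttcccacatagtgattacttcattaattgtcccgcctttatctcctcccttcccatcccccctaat
Dkk1: cccatcccggCTTTGTTgtcttccctg
Either motif occurred in 8.06% of all 32851 windows and in 19 of the 269 windows (7.06%) of the genes that were at least 2-fold higher in dermal fibroblasts, so these genes held it no more often than genes at large. None of the 9 windows of the 6 matched rule genes held it. Matches were found in 2 of 14 windows of the Wnt inhibitor and feedback genes (*Dkk1* and *Tnfrsf19*) and in 2 of 17 windows of the nuclear effectors and targets (*Sp5* and *Tcf7l2*). A match is a description of the letters and does not show binding.

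Dermal fibroblasts made up 10.1% (9.54 to 10.7) of proximal cells and 14.2% (13.5 to 15.0) of distal cells, a difference of 4.13 percentage points (3.19 to 5.07). The difference exceeded the counting error, and whether it exceeds the spread between embryos cannot be said with 1 library a segment. With every cell thinned to 3000 UMIs the rule was met by 0.891% (0.725 to 1.08) and 1.36% (1.13 to 1.63). In the earlier sorted libraries the same rule picked 0.190% (E11.5), 0.382% (E12.5), 0.751% (E13.5) and 7.96% (E14.5), and it picked 0.604% and 0.581% in the 2 libraries of whole E11.5 limbs. Thinned, these shares were 0, 0.0424, 0.114, 1.16, 0.0183 and 0.0352%. Cells that met the rule were thus rare up to E13.5 on both scales. Median depth was far lower up to E13.5 (6788 to 8992 UMIs) than at E16.5 (18473 and 17275), and the libraries up to E13.5 used an older reagent kit. In the unthinned shares stage, kit and depth cannot be told apart. Thinned cells had the same number of UMIs, but stage and kit cannot be told apart there either.

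**Figure D1:**
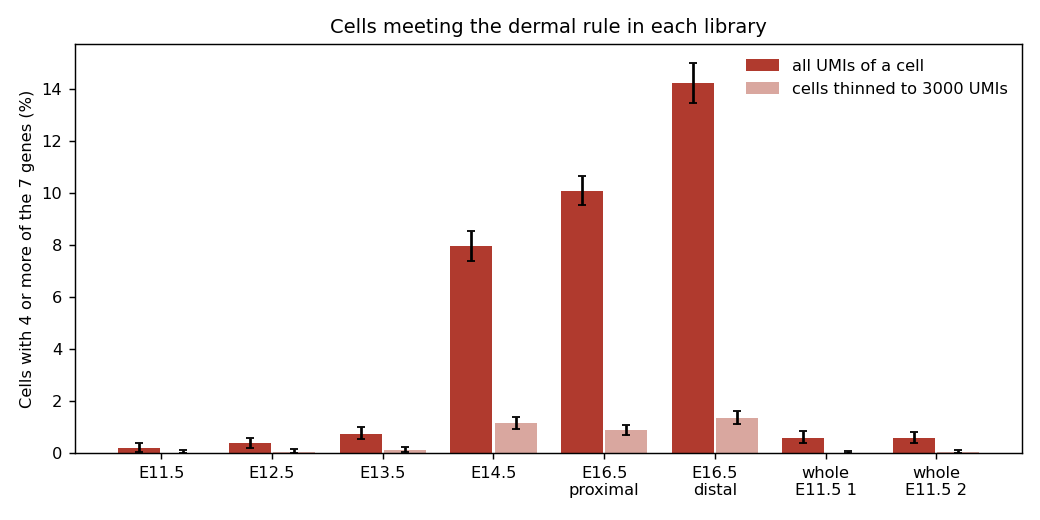
Share of cells (%) with a UMI in 4 or more of the 7 rule genes in each of the 8 libraries, with all UMIs of a cell and after thinning to 3000 UMIs; bars are single libraries and error bars exact binomial 95% intervals. The E16.5 distal bar (14.2%) stands above the E16.5 proximal bar (10.1%), and the E11.5 to E13.5 and whole limb bars stay below 1%.

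Values of the 7 rule genes chose the members and are given as a description. They are in CPM, the usual scale that divides the UMIs of a gene, summed over a group of cells, by all UMIs of the same cells. *Irx1*, an Iroquois homeobox gene, was at 306 CPM in proximal dermal fibroblasts against 15.7 in the other proximal cells, and at 181 against 17.0 in the distal library. *Col7a1*, which encodes the anchoring fibril collagen that ties epidermis to dermis, stood at 224 against 7.54 CPM proximally and 249 against 13.2 CPM distally. *Rspo1*, whose secreted product strengthens Wnt signals, was at 79.6 against 2.59 CPM and at 48.6 against 3.07 CPM. *En1*, a homeobox gene that the paper uses as a marker of dermal fibroblast progenitors, was at 66.4 against 15.2 CPM and at 105 against 7.45 CPM. *Irx1* and *Rspo1* were thus higher in proximal dermal fibroblasts, and *En1* in distal ones. *Axin2* (57.0 and 107 CPM in dermal fibroblasts), *Nkd2* (42.1 and 73.6 CPM) and *Lef1* (52.0 and 66.0 CPM) were all higher in the distal library, where the other cells had 18.2, 8.68 and 6.83 CPM. The other proximal cells had 6.77, 7.92 and 5.85 CPM of these genes.

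Detection per cell followed the same order. In proximal and distal dermal fibroblasts thinned to 3000 UMIs, *Rspo1* was found in 23.3% and 14.1% of cells (71.9% and 42.6% unthinned), and *En1* in 18.3% and 24.1% (53.2% and 61.5% unthinned). *Irx1* was found in 58.3% and 39.7% of thinned cells and *Col7a1* in 46.5% and 47.5%. Dermal fibroblasts had a median depth of 18161 and 17388 UMIs. Beside them stood cells outside the rule with at least 6 of 8 cartilage genes (1116 and 368 cells, median depth 17954 and 18064.5 UMIs). These cartilage cells held fewer than 4 of the 7 genes by definition, so low shares in them are partly fixed by the rule. Thinned, *Rspo1* was found in 0.0896% and 0.272% of these cells, *En1* in 0.538% and 0%, and *Col7a1* in 1.08% and 1.36%. *Lef1* (6.54% and 12.8%) and distal *Irx1* (11.1%) were more frequent in them. In thinned cells of the epithelial group outside the rule (1056 and 87 cells with at least 4 of 10 epithelial genes; median depth 34801 and 28146 UMIs), *Col7a1* was found in 4.83% and 13.8% and *Lef1* in 6.53% and 17.2%.

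The cut lay within a continuum. Just outside it were 504 proximal and 489 distal cells with 3 of the 7 genes (4.54% and 5.79% of cells), and just inside it 463 and 407 cells with 4 (4.17% and 4.82%). *Twist2* was at 213 and 454 CPM in the cells with 3 genes and at 375 and 678 CPM in those with 4. *Sp5* rose in the same way from 16.4 and 18.3 CPM to 41.5 and 35.5 CPM. *Krt14*, a keratin of basal epidermis, went the other way, from 1357 and 261 CPM outside the cut to 334 and 43.2 CPM inside it. All 7 genes were found in 61 proximal and 68 distal cells.

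The label was checked against 12 further dermal genes that the rule did not use. At 3000 UMIs, 3 or more of these were detected in 89.3% of proximal and 95.3% of distal dermal fibroblasts, against 9.91% and 20.3% of the other cells. Of the 12 genes, 11 were at least 2-fold higher in both libraries, beside 3.59% of all measured genes, with a median log2 ratio of 2.76 and 2.53 beside 0.05 and 0.01. Examples were *Crabp1*, a retinoic acid binding protein gene (1557 against 246.5 CPM proximally, 1780 against 425 CPM distally), and *Twist1* (720 against 194 and 938 against 382 CPM). *Dpp4*, a surface marker of some fibroblasts, was the exception, with 11.4 against 22.8 CPM and 5.06 against 10.1 CPM. Part of this list comes from the study's own reading of these samples, so it is not independent evidence for the label.

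Markers of other cell types were mostly low in dermal fibroblasts but not absent. At least 4 of 10 epithelial genes were found in 78 proximal (6.96%) and 20 distal dermal fibroblasts (1.67%), and in 10.2% and 1.27% of all cells. The summed level of these 10 genes was 1217 CPM in proximal and 101 CPM in distal dermal fibroblasts, against 4422 and 427.6 CPM in the other cells, with none at 0. The 8 cartilage genes summed to 771.4 and 291.2 CPM, against 4318 and 1186 CPM, again with none at 0. Lists of immune, glial, melanocyte and myogenic markers had no gene at 10 CPM or more, and no thinned dermal fibroblast held 3 of any of these lists (0 of 1121 and 0 of 1201 cells). The reporter was at 1257 and 943 CPM in dermal fibroblasts against 1350 and 838 CPM in the other cells, and *Pdgfra*, a general fibroblast receptor gene, at 225 and 378 CPM against 118 and 200 CPM. *Hic1* itself was lower in dermal fibroblasts, at 15.4 against 22.8 CPM proximally and 17.4 against 29.7 CPM distally. The libraries shared 30 cell barcodes, none of them between dermal fibroblasts.

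Dermal fibroblasts were then set against all other cells of their own library. A level of 10 CPM or more in the higher group of both libraries was reached by 7879 genes, of which 283 (3.59%) were at least 2-fold higher in dermal fibroblasts of both libraries and 371 (4.71%) at least 2-fold lower, on the scale of CPM + 1. These shares include the rule's own contrast and are descriptions. Of the 12 genes with the largest ratios 6 encode transcription factors. *Sp5*, a direct target of Wnt signals, was at 48.3 CPM (45.5 to 51.2) in proximal dermal fibroblasts and 1.27 CPM in the other proximal cells, a ratio of 38.1 (33.3 to 43.7). In the distal library it was at 52.5 against 2.14 CPM, a ratio of 24.5 (21.5 to 27.9). *Tcf7*, which encodes a TCF/LEF factor, was at 31.1 against 1.57 CPM and 49.9 against 2.95 CPM. *Bcl11b*, a zinc finger gene of skin and T cells, was at 221 against 16.02 CPM and 325 against 22.1 CPM, with ratios of 13.8 and 14.7 that became 28.1 and 15.9 when epithelial cells were left out of both groups. *Twist2* was at 422 against 45.6 CPM and 707 against 86.7 CPM. *Runx3* (58.9 against 3.16 and 90.6 against 7.43 CPM) and *Zfp536* (39.1 against 1.38 and 64.8 against 7.72 CPM) completed the transcription factors.

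The other named genes act at the cell surface or outside the cell, or have less defined roles. *Lix1* was at 114 against 5.50 CPM proximally and 163 against 8.95 CPM distally. *Frem1*, a basement membrane component that holds epidermis to dermis, was at 60.6 against 3.98 CPM and 116 against 9.47 CPM. *a* (nonagouti), whose secreted product switches pigment cells to yellow pigment, was at 153 against 7.66 CPM and 187 against 17.0 CPM. *Plxna4*, a semaphorin receptor gene, was at 43.5 against 1.46 CPM and 84.2 against 9.85 CPM. For these genes both dermal values lay far above both values of other cells. *Nrgn* (154 against 7.93 and 60.7 against 6.36 CPM) and *Fam174b* (93.4 against 7.04 and 102 against 12.5 CPM) were the remaining ones. *Nrgn* was the only one of the 12 with a lower level in distal than in proximal dermal fibroblasts.

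**Figure D2:**
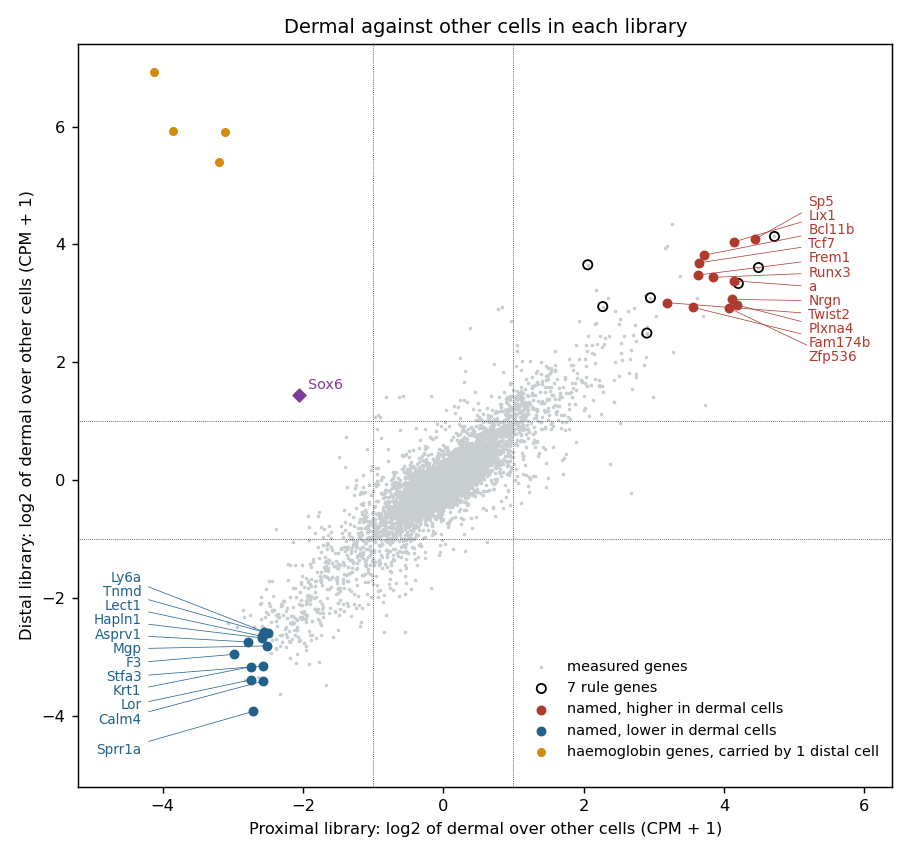
Ratio of dermal over other cells, as log2 of CPM + 1, in the proximal library (x axis) and the distal library (y axis); each point is a gene measured in both libraries, dotted lines mark 2-fold, and labels give the 12 named genes in each direction and *Sox6*. The named higher genes, led by *Sp5*, sit at the upper right among the open circles of the 7 rule genes, *Sox6* stands alone at -2.05 and 1.45, and the haemoglobin genes at the top were carried by 1 distal cell.

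Genes of the Wnt pathway outside the rule were taken next, by role. Of 22 ligand and R-spondin genes 6 were measured, and 3 were higher in dermal fibroblasts of both libraries and 1 lower, beside 3.59% and 4.71% of all measured genes. *Wnt6* was at 28.2 against 9.04 CPM proximally and 21.5 against 4.97 CPM distally. *Wnt11*, a ligand of the pathway branch without β-catenin, was at 31.4 against 9.52 CPM and 44.1 against 18.9 CPM. *Rspo3*, a relative of *Rspo1*, was at 124 against 46.5 CPM and 162 against 64.8 CPM. For each of these genes both dermal values lay above both values of the other cells. *Wnt2* was the lower one, with 8.01 against 30.3 CPM and 2.47 against 15.4 CPM. *Wnt4* parted the segments, at 60.8 against 46.6 CPM in the proximal library but 135 against 21.6 CPM in the distal one, ratios of 1.30 (1.23 to 1.38) and 6.22 (5.92 to 6.54). *Wnt5a* was at 117 against 49.5 CPM and 101 against 97.1 CPM.

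Among 13 measured receptor genes none was 2-fold higher in both libraries, which is near the 3.59% of all genes, and 3 were lower, *Fzd4*, *Fzd8* and *Fzd9* (4.71% of all genes). The median log2 ratio was -0.26 and -0.15, and whether receptors differ from ligands was not tested. *Fzd2* was at 295 against 179 CPM and 302 against 216 CPM, and the co-receptor *Lrp6* at 47.0 against 56.3 CPM and 79.9 against 93.8 CPM. These are differences below 2-fold in opposite directions.

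Inhibitors and feedback genes lay on both sides, 6 higher and 4 lower of 13 measured beside 3.59% and 4.71% of all genes, with a median log2 ratio of 0.75 and 0.64. *Dkk1*, whose product blocks the Wnt co-receptor, was at 13.6 against 0.789 CPM and 20.4 against 2.09 CPM. *Nkd1*, an intracellular feedback inhibitor, was at 102 against 18.1 CPM and 219 against 29.2 CPM. *Tnfrsf19* (also called Troy) was at 28.4 against 3.02 CPM and 59.1 against 5.78 CPM. The secreted Wnt binders fell on both sides. *Wif1* was at 141 against 53.0 CPM and 198 against 48.3 CPM, and *Sfrp5* at 13.3 against 1.15 CPM and 16.6 against 1.83 CPM. *Sfrp1* was at 19.7 against 64.3 CPM and 14.8 against 48.3 CPM, and *Sfrp2* at 57.7 against 126 CPM and 37.9 against 128 CPM. Relatives of one protein family thus differed in direction. *Kremen1* was the sixth higher gene, and *Dkk2* (12.5 against 63.3 and 24.9 against 119 CPM) and *Shisa2* completed the lower ones. *Apcdd1*, a membrane-bound inhibitor, missed the level filter in the proximal library, with 7.11 against 0.681 CPM there and 14.6 against 1.55 CPM distally.

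Of the 15 nuclear effectors and targets 4 were higher, *Tcf7*, *Sp5*, *Twist1* and *Twist2*, beside 3.59% of all genes. None was lower, which is near the 4.71% of all genes, and the median log2 ratio was 0.27 and 0.14. The 4 higher genes were also among the further dermal genes used to check the label, so they are not a separate result. β-catenin itself, *Ctnnb1*, was at 228 against 176 CPM and 259 against 230 CPM. *Tcf7l2*, another TCF/LEF gene, was at 80.4 against 159 CPM and 77.0 against 155 CPM, about 2-fold lower in dermal fibroblasts but short of the limit in the proximal library, and *Tcf7l1* at 42.6 against 43.6 CPM and 61.0 against 69.5 CPM. *Ccnd1*, a cyclin gene, was at 241 against 90.1 CPM and 219 against 119 CPM, and *Myc* at 12.9 against 20.2 CPM and 11.7 against 19.5 CPM.

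**Figure D3:**
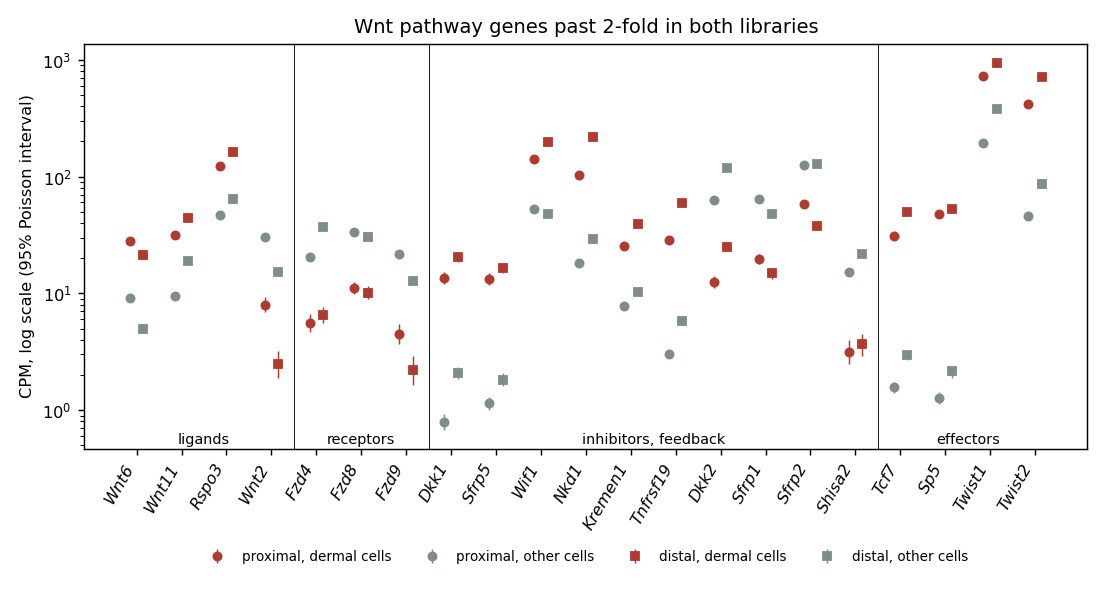
Level of the Wnt pathway genes outside the rule that differed at least 2-fold in the same direction in both libraries, in CPM on a log scale, grouped by role; circles are the proximal and squares the distal library, red dermal and grey other cells, with exact Poisson 95% intervals. *Sp5*, *Dkk1* and *Tcf7* show wide gaps upward in both libraries and all 3 receptors lie lower in dermal fibroblasts.

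Transcription factor genes known from skin and its appendages were mostly higher. Of 16 measured, 11 were higher and 2 lower in both libraries, with a median log2 ratio of 2.13 and 2.06. Over all measured genes 3.59% were higher and 4.71% lower, with a median of 0.05 and 0.01. This list was chosen with earlier results of these data known. *Irx2*, *Irx5* and *Bcl11b* were also among the further dermal genes used to check the label. The counts are therefore a description and not independent evidence. *Irx2* was at 140 against 21.8 CPM and 88.1 against 11.2 CPM, *Irx3* at 58.3 against 10.5 CPM and 68.3 against 11.7 CPM, and *Irx5* at 140 against 18.5 CPM and 145 against 36.6 CPM, so the 3 further Iroquois genes stood with *Irx1*. *Zeb2* was at 397 against 67.6 CPM and 713 against 159 CPM, whereas its relative *Zeb1* was at 27.7 against 69.4 CPM and 52.0 against 155 CPM. *Foxd1* was at 47.2 against 6.301 CPM and 52.7 against 6.05 CPM and *Foxc1* at 2.61 against 14.4 CPM and 3.27 against 23.0 CPM. Close relatives thus lay on opposite sides in both pairs.

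The genes lowest in dermal fibroblasts relative to the other cells were of 2 kinds. The first were genes of cornifying epidermis. *Lor* (loricrin) was at 192 against 1296 CPM proximally and 4.85 against 60.2 CPM distally, and *Krt1* at 202 against 1351 CPM and 27.8 against 257 CPM. *Asprv1*, *Sprr1a*, *Stfa3* and *Calm4* were of the same kind. Epithelial cells, as defined by the 10 genes, moved with these values. When they were left out of both groups, the log2 ratios of these 6 genes lay between -0.21 and 0.06 in the proximal and between -0.32 and 0.22 in the distal library, so the difference was gone.

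The second kind were genes of cartilage, tendon and other connective tissue. *Hapln1* and *Lect1*, both cartilage matrix genes, were at 24.2 against 150 CPM and 10.2 against 70.6 CPM, and at 32.5 against 199 CPM and 10.2 against 69.3 CPM. *Tnmd*, a tendon gene, was at 57.9 against 331 CPM and 37.3 against 231 CPM. *Mgp*, an inhibitor of calcification, was at 115 against 660 CPM and 90.8 against 643 CPM. *Ly6a* (Sca-1), a marker of progenitor-like fibroblasts, was at 7.32 against 48.1 CPM and 6.42 against 43.0 CPM. *F3* (tissue factor) was at 20.1 against 165 CPM and 2.55 against 26.5 CPM. Without epithelial cells its ratio fell from 8.21-fold to 3.04-fold lower proximally and from 10.4-fold to 5.13-fold lower distally, whereas the 5 genes before it stayed 6.19-fold to 9.38-fold lower. Leaving out the 6% of cells with the highest doublet scores, an alternative chosen after seeing the data, moved the log2 ratio of *Hapln1* from -2.59 to -4.66 proximally and from -2.68 to -4.71 distally. *Lect1* (-4.52 and -4.99), *Mgp* (-4.47 and -4.23) and *Tnmd* (-4.16 and -4.19) moved by over 1 log2 unit in both libraries in the same way. *Ly6a* reached -3.00 and -3.40 and *F3* -3.78 and -3.51. The levels of these genes given above for dermal fibroblasts thus include cells with high doublet scores. A ranking without epithelial cells, made after the values were seen, added *Acan*, *Tm4sf1*, *Ebf3*, *Ptgis*, *1500015O10Rik*, *Clec3b* and *Calml4* in place of the epidermal genes and *F3*. Of these, *Acan*, the aggrecan gene of cartilage, was at 24.2 against 137.5 CPM and 9.91 against 63.8 CPM, and *Clec3b* at 38.0 against 202 CPM and 27.4 against 206 CPM. Of the marker lists, 7 of 8 cartilage and 7 of 8 tendon genes were lower in both libraries, beside 4.71% of all measured genes.

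Of 36 measured interstitial matrix genes 12 were lower in both libraries, beside 4.71% of all genes, and 1 was higher, which is near the 3.59% of all genes, with a median log2 ratio of -0.44 and -0.87. *Lum* (lumican), a proteoglycan of collagen fibrils, was the higher one at 2051 against 717 CPM and 2601 against 736 CPM. *Postn* (periostin) was at 241 against 1135 CPM and 216 against 1378 CPM, *Aspn* at 154 against 601 CPM and 90.5 against 676 CPM, and *Ogn* at 172 against 485 CPM and 133 against 655 CPM. The chief fibrillar collagens stayed within 2-fold, with *Col1a1* at 9168 against 5197 CPM and 8162 against 7761 CPM and *Col3a1* at 8688 against 4443 CPM and 7165 against 5478 CPM. Basement membrane and junction genes outside the rule gave 4 higher and 2 lower of 16, beside the same 3.59% and 4.71%. *Egfl6*, a basement membrane ligand, was at 806 against 233 CPM and 1396 against 335 CPM, *Col23a1* at 93.4 against 15.6 CPM and 152 against 23.5 CPM, and *Ntn1* at 30.6 against 13.6 CPM and 78.97 against 20.9 CPM. The lower ones were *Nid2* (22.7 against 89.5 and 12.5 against 54.0 CPM) and *Col18a1* (8.14 against 35.7 and 10.5 against 34.5 CPM), which encode general basement membrane proteins.

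Of 8 reticular and hypodermal genes, markers of deeper layers of skin, 5 were measured and 4 were lower (4.71% of all genes), *Dlk1* (1215 against 3979 and 549 against 2629 CPM), *Mest* (465 against 1985 and 196 against 1144 CPM), *Mgp* and *Ly6a*. The list did not hold *Irx1*, *Irx3* and *Irx5*, which were higher in dermal fibroblasts of both libraries, *Irx1* being a rule gene. The paper reports these Iroquois genes as enriched in the reticular branch of its dermal lineage. Reticular markers thus lay on both sides, and whether the selected cells belonged to deeper or upper layers was not tested. The counts for other signalling pathways stand beside 3.59% higher and 4.71% lower over all measured genes. Hedgehog gave 2 higher and none lower of 9, the target genes *Ptch1* (52.2 against 16.4 and 125 against 37.5 CPM) and *Gli1* (25.8 against 9.83 and 35.1 against 12.2 CPM). The BMP pathway gave 2 higher (among them *Id2*) and 3 lower (*Bmp5*, *Gdf10* and *Chrd*) of 22, and the FGF pathway 3 higher (*Fgf13*, *Fgfr1* and *Fgfr2*) and 3 lower (*Fgf7*, *Fgf18* and *Fgfbp1*) of 16. The retinoic acid pathway gave 2 higher, *Crabp1* and the degrading enzyme gene *Cyp26b1* (48.6 against 11.01 and 125 against 40.4 CPM), and 5 lower of 13. Among the lower ones were the synthesising enzyme genes *Aldh1a2* (2.23 against 12.2 and 2.17 against 10.8 CPM) and *Aldh1a3* (5.10 against 25.6 and 2.30 against 18.1 CPM). Of 8 genes of dividing cells 5 were higher, and 3 or more of the 8 were detected in 25.3% and 21.8% of thinned dermal fibroblasts against 12.7% and 8.21% of the other cells.

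Another fibroblast group in the sort were the cells with a UMI in at least 4 of 7 genes of the so-called universal fibroblasts (2826 proximal and 2073 distal cells outside the dermal rule). Against them 309 of 7854 genes (3.93%) were at least 2-fold higher and 386 (4.91%) lower in dermal fibroblasts of both libraries. The 6 genes with the largest ratios upward were again *Sp5*, *Runx3*, *Bcl11b*, *Lix1*, *Nrgn* and *a*. *Runx3* was at 0.516 and 1.63 CPM in universal fibroblasts, a dermal excess of 114-fold and 55.5-fold. *Bcl11b* was at 4.29 and 5.14 CPM there, an excess of 51.6-fold and 63.2-fold. In the other direction stood genes that the comparator was chosen by (*Ly6a*, *Clec3b*, *Pi16* and *Mfap5*) and others it was not, among them *Wnt2* (90.7 and 39.0 CPM in universal fibroblasts), *Sema3c* (237 and 297 CPM), *Pamr1* (54.8 and 65.4 CPM), *Col5a3* (201 and 239 CPM) and *Tnxb* (153 and 165 CPM). *Sema3c* was at 23.1 and 28.7 CPM in dermal fibroblasts and *Tnxb* at 14.8 and 10.5 CPM. Only 98 proximal and 81 distal dermal fibroblasts held 4 or more of the 7 genes themselves.

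Dermal fibroblasts also varied among themselves. The 8 genes with the largest variance over mean at 3000 UMIs were *Col2a1*, *Krt14*, *Malat1*, *Ly6d*, *Col1a1*, *Krt1*, *Krtdap* and *Krt15*. *Col2a1*, the main cartilage collagen gene, had a UMI in 9.90% of proximal and 3.25% of distal thinned dermal fibroblasts, yet reached 58 and 61 UMIs in single cells. *Krt14* had a UMI in 5.35% and 2.33% of cells with up to 62 and 36 UMIs. *Malat1* and *Col1a1* were found in nearly all cells (100% of both, and 98.6% and 99.4%). The 6 remaining genes are those of cartilage or epidermis and were carried by a minority of the cells that met the rule. Doublets were not removed, and their part in these values was not tested.

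*En1* was detected in 596 of 1121 proximal dermal fibroblasts (53.2%, 50.2 to 56.1) and 739 of 1201 distal ones (61.5%, 58.7 to 64.3). Cells with and without an *En1* UMI had a median of 18692.5 and 17604 UMIs in the proximal and 17423 and 17242 in the distal library. Few genes separated them. Of 7470 measured genes 1 (0.0134%) was at least 2-fold higher in both libraries where *En1* was detected, and 5 (0.0669%) were lower, *Sfn*, *Krt5*, *Krt14*, *Krt15* and *Ntrk3*. *Krt14* was at 37.4 CPM in proximal cells with an *En1* UMI and 381 CPM in those without, and the part of epithelial cells in these calls was not tested. *Ntrk3*, a neurotrophin receptor gene, was at 15.99 against 34.5 CPM and 9.32 against 32.3 CPM. *Tbx3*, a limb patterning gene, was at 20.7 against 37.2 CPM and 29.3 against 101 CPM, short of 2-fold in the proximal library. *En1* is a rule gene, so cells without it were picked by the other 6 genes. For *Lmx1b*, which specifies dorsal limb mesenchyme, a UMI was found in 229 of the 739 distal cells with *En1* (31.0%) and in 13.4% of those without, against 6.21% and 6.86% in the proximal library. In thinned cells a *Lmx1b* UMI was found in 1.25% of dermal, 1.25% of other and 0.717% of cartilage cells of the proximal library. Whether these proximal UMIs are background was not tested. The distal shares were 4.996% (3.83 to 6.38), 2.17% and 1.09%. Whether both genes were transcribed in the same cell was not tested.

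Cells with 3 or more of 12 genes of the dermal condensate and papilla, the mesenchymal cluster beneath each hair follicle, numbered 341 proximal (30.4%) and 491 distal (40.9%). Of the other cells 9.74% and 16.1% held 3 or more. Thinned, the dermal shares were 4.82% and 6.08%, against 0.421% and 0.773% of the other cells. The cells with these genes were deeper (median 19364 against 17736.5 UMIs, and 18860 against 16691). Of the 12 genes 6 were measured against the other cells. *Foxd1*, *Ptch1* and *Gli1* were at least 2-fold higher in dermal fibroblasts of both libraries, beside 3.59% of all measured genes. *Sox2*, a defining papilla gene, was at 5.18 CPM and 3.74 CPM in dermal fibroblasts and *Sox18* at 7.84 and 5.66 CPM, both below the level filter. *Fgf20*, which belongs to the FGF list and not to these 12 genes, had no UMI in dermal fibroblasts of either library (a count of 0 allows up to 3 UMIs a library). Of 7570 measured genes outside the list, 38 (0.502%) were at least 2-fold higher in both libraries in the cells with condensate genes and 1 (0.0132%), *Ccl2*, was lower. The 6 named ones were *Aqp1* (26.3 against 6.75 and 26.2 against 5.87 CPM), *C1qtnf3* (51.9 against 15.4 and 45.9 against 10.1 CPM), *Dclk1* (108 against 38.2 and 87.6 against 23.6 CPM), *Pde3a*, *Mtus1* and *Col2a1* (613 against 200 and 198 against 38.1 CPM). Cartilage genes, *Col2a1*, *Acan*, *Hapln1*, *Sox9* and *Lect1* among them, thus moved with the condensate genes, and their part in the result was not tested.

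The second comparison set distal against proximal dermal fibroblasts. Of 8208 genes that reached 10 CPM in either, 328 (4%) were at least 2-fold higher in distal cells and 175 (2.13%) at least 2-fold lower, and the median log2 ratio over all of them was 0.08. Calls leaned toward distal (65.2% of them), and scaling by the trimmed mean of M-values (TMM) instead gave 230 higher and 216 lower (51.6% toward distal) after a shift of 0.116 on the log2 scale. *Malat1*, an abundant nuclear RNA, was at 15618 CPM in proximal and 28584 CPM in distal dermal fibroblasts and at 14381 and 30928 CPM in the other cells. It was thus higher in both cell groups of the distal library, and its part in the segment differences was not tested. Each difference is also one between 2 libraries, and levels in the other cells are given for the genes described in detail. Whether dermal and other cells differed in their ratios was not tested.

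Position genes of the limb led the distal side. *Hoxa13*, a gene of the hand, was at 0.214 CPM (5 UMIs) in proximal and 21.2 CPM in distal dermal fibroblasts, a ratio of 99.1 (42.2 to 307) beside 72.6 in the other cells. *Hoxd13* was at 1.03 and 22.5 CPM, a ratio of 21.9 (14.6 to 34.5) beside 49.4. *Hoxa11* was at 7.36 and 106 CPM, a ratio of 14.5 (12.4 to 17.0) beside 3.68. *Hoxa11* was thereby 3.15-fold higher in distal dermal fibroblasts than in the other distal cells (33.8 CPM), whereas *Hoxd13* was lower in them (22.5 against 87.4 CPM). A UMI of *Hoxa13* or *Hoxd13* was found in 332 distal dermal fibroblasts (27.6%) and in 62.9% of the other distal cells, against 2.23% and 3.18% in the proximal library.

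The remaining named genes of the distal side were of mixed roles. *Sp9*, a limb bud transcription factor gene, was at 1.37 and 26.6 CPM, a ratio of 19.4 beside 21.2 in the other cells. *Sox6* was at 2.61 and 48.7 CPM, a ratio of 18.6 (14.4 to 24.5) beside 1.23. *Pappa*, a protease gene that frees insulin-like growth factors, was at 5.40 and 67.6 CPM, a ratio of 12.5 (10.4 to 15.1) beside 1.51. *Mmp11*, a stromal metalloproteinase gene, was at 29.1 and 232 CPM, a ratio of 7.98 (7.37 to 8.66) beside 1.82. *Sox6*, *Pappa* and *Mmp11* thus had a segment ratio in dermal fibroblasts well above that of the other cells. *Cadps* (3.38 and 30.9 CPM), *Kif26b* (2.91 and 23.7 CPM), *Cttnbp2* (19.3 and 125 CPM) and *Opcml* (5.35 and 37.2 CPM) had ratios of 6.47 to 9.14 in dermal fibroblasts and 1.45 to 2.66 in the other cells. *Ccl2*, a chemokine gene, was at 10.1 and 68.7 CPM, a ratio of 6.80 beside 3.87. *Gm10076*, an unnamed gene model, had nearly equal ratios in both groups (9.13 and 9.32).

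Most of the genes lowest in distal dermal fibroblasts were led by epithelial cells. *Sprr1b* was at 75.7 CPM in proximal and 0.680 CPM in distal dermal fibroblasts, *Serpinb2* at 72.9 and 0.808 CPM and *Lor* at 192 and 4.85 CPM. In the other cells they were also lower distally, by 19.5-fold, 26.6-fold and 21.5-fold. *Asprv1*, *Sprr1a* and *Calm4* were of the same kind, and *Krt77*, *Orm1* and *Ifi202b* had only 2, 1 and 1 UMIs in distal dermal fibroblasts. The last 2 had 562 and 493 UMIs in proximal dermal fibroblasts, with ratios of 566 (101 to 22391) and 496 (88.7 to 19647). All of these 9 were at least 5 times higher in CPM in proximal epithelial cells than in the other proximal cells, and epithelial cells formed 10.2% of the proximal and 1.27% of the distal library. By that criterion, set after the values were seen, 59 of the 175 genes were led by epithelial cells and 116 were not, against 5 of the 328 on the distal side. When epithelial cells were left out, the log2 ratios of distal over proximal dermal fibroblasts, on the scale of CPM + 1, moved from -5.51 to -2.16 for *Sprr1b*, from -5.35 to -2.48 for *Serpinb2* and from -5.05 to -1.69 for *Lor*. Those of *Asprv1*, *Sprr1a*, *Calm4* and *Krt77* moved from between -5.80 and -4.65 to between -2.70 and -1.43. *Ifi202b* moved from -4.41 to -1.60, and *Orm1* from -4.59 to -0.84, below 2-fold. The 2 remaining named genes, *Gm10263* and *Gm3550*, are gene models with like ratios in the other cells (43.5 beside 38.2, and 26.8 beside 41.3).

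The 116 genes were ranked by their ratios with epithelial cells left out, and among the 12 largest were 4 Hox genes. The values given here are those with all cells. *Hoxb4* was at 28.3 CPM in proximal dermal fibroblasts and 0.638 CPM in distal ones, a ratio of 44.4 (26.7 to 79.7) beside 8.64 in the other cells. *Hoxc4* was at 38.3 and 3.27 CPM (11.7 beside 7.66), *Hoxc6* at 62.3 and 6.93 CPM (8.98 beside 5.16) and *Hoxb2* at 36.2 and 5.78 CPM (6.26 beside 7.45). *Meis2*, a gene of the proximal limb, was at 82.5 and 16.5 CPM (5.01 beside 3.81). The Hox and Meis genes moved the same way in dermal and other cells. *Cldn10* (71.5 and 10.6 CPM), *Pappa2* (51.0 and 12.4 CPM) and *Efemp1* (26.5 and 6.46 CPM) had ratios of 6.72, 4.12 and 4.10 beside 1.18, 1.38 and 2.19 in the other cells. *Pappa* and its relative *Pappa2* were hence on opposite sides of the segment comparison. *Matn1*, a cartilage gene, and *Gm10036* had ratios of 11.3 and 10.7 beside 14.8 and 11.1.

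**Figure D4:**
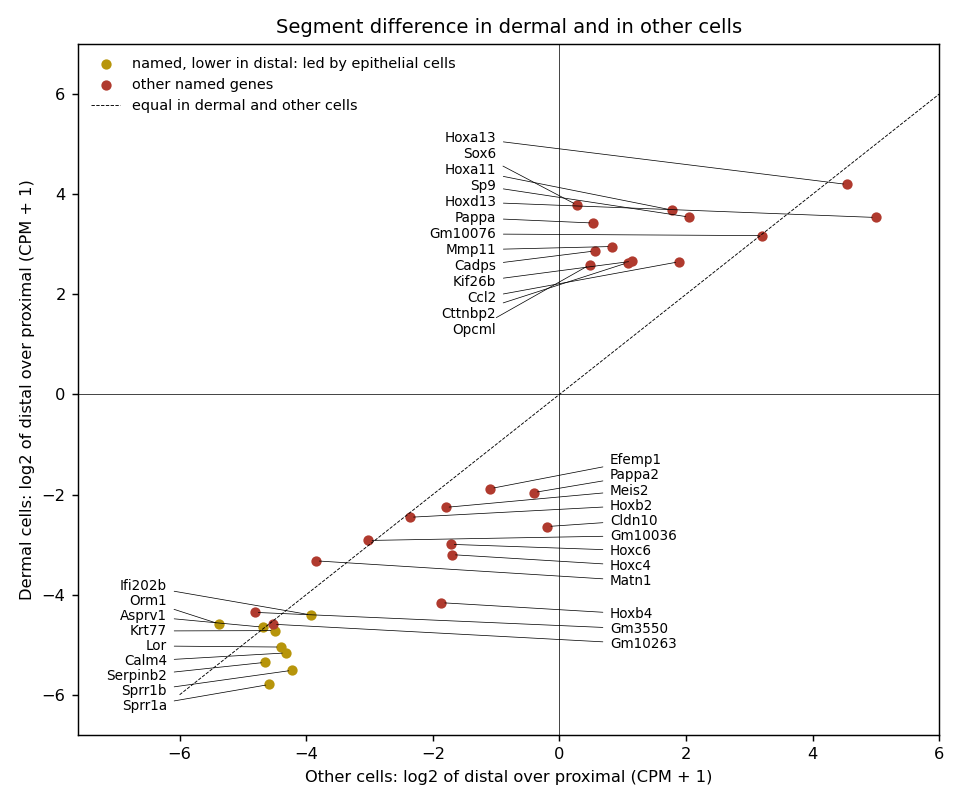
Ratio of distal over proximal dermal fibroblasts (y axis) against the same ratio in the other cells (x axis), as log2 of CPM + 1, for the named genes of the segment comparison; the dashed line marks equal ratios. *Hoxa13* and *Gm10076* lie near the line, whereas *Sox6*, *Pappa* and *Mmp11* lie high above it.

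The Hox clusters were read gene by gene, since both segments and both cell groups could be compared. Of the genes measured between dermal fibroblasts, HoxA gave 3 higher in distal (*Hoxa10*, *Hoxa11* and *Hoxa13*) and 1 lower (*Hoxa7*) of 5, HoxD 2 higher (*Hoxd11* and *Hoxd13*) and 3 lower (*Hoxd4*, *Hoxd8* and *Hoxd9*) of 6, and HoxB and HoxC all 4 and all 3 lower. Over all genes 4% were higher and 2.13% lower in distal dermal fibroblasts. With TMM scaling *Hoxd11* (30.9 and 63.9 CPM) fell below 2-fold. *Hoxa10* was at 65.2 CPM in proximal dermal and 63.3 CPM in the other proximal cells, but at 156 against 68.0 CPM in the distal library. *Hoxa9* was higher in dermal fibroblasts of both libraries, at 78.9 against 35.8 CPM and 113 against 39.9 CPM.

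Several genes of HoxB and HoxC had their highest level of the 4 cell groups in proximal dermal fibroblasts. *Hoxb9* was at 19.7 CPM there against 0.530 CPM in the other proximal cells, and at 1.32 against 0.280 CPM distally. *Hoxc8* was at 19.6 against 2.08 CPM and 0.340 against 0.442 CPM, and *Hoxb3* at 13.02 against 2.56 CPM and 0.765 against 0.177 CPM. *Hoxc6* and *Hoxb4* were at 6.31 and 4.58 CPM in the other proximal cells, below their dermal levels of 62.3 and 28.3 CPM. In the proximal library the dermal level was thus the higher one for each of these 5 genes. Of *Hoxd8* the levels were 57.6 against 13.6 CPM and 25.98 against 9.06 CPM, and of *Hoxd4* 21.1 against 1.90 CPM and 9.14 against 1.32 CPM.

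**Figure D5:**
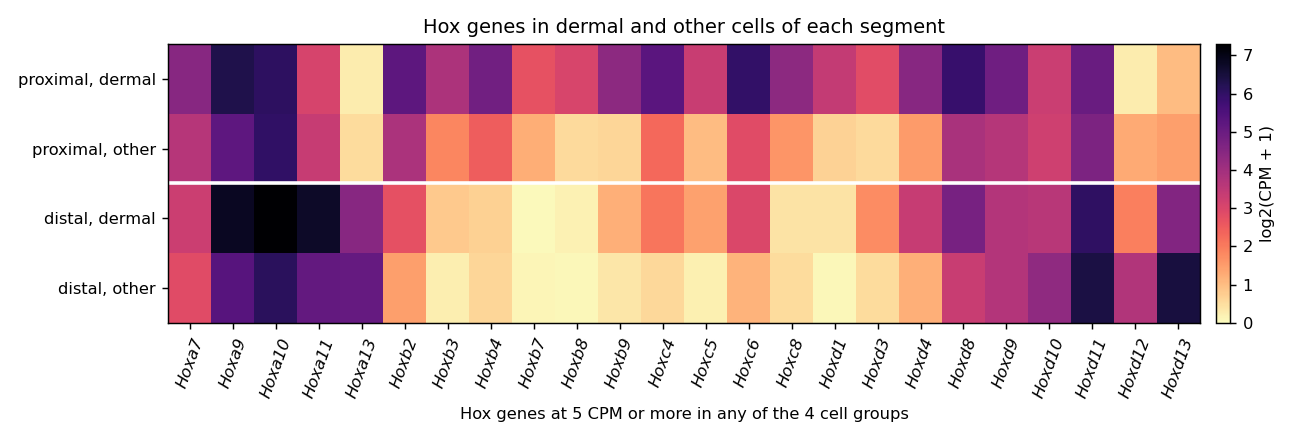
Level of Hox genes, as log2 of CPM + 1, in dermal and other cells of the proximal and distal library; columns are the Hox genes at 5 CPM or more in any of the 4 groups, ordered by cluster. The row of proximal dermal fibroblasts is darker across HoxB and HoxC, and *Hoxa13* and *Hoxd13* are dark in both distal rows.

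Other patterning and signalling genes differed in both directions. *Tbx5*, the forelimb identity gene, was at 25.9 and 94.7 CPM in proximal and distal dermal fibroblasts, a ratio of 3.66 (3.34 to 4.01) beside 2.78 in the other cells. *Lmx1b* was at 3.38 and 17.7 CPM, a ratio of 5.23 beside 1.90. On the proximal side stood *Meis1* (38.4 and 14.9 CPM, with 8.66 and 2.22 CPM in the other cells) and *Osr1* (73.9 and 32.3 CPM, with 43.8 and 32.0 CPM in the other cells). In the BMP pathway 6 of 21 measured genes were higher in distal dermal fibroblasts, beside 4% of all genes, namely *Bmp2*, *Bmp3*, *Bmp4*, *Nog*, *Grem1* and *Smad7*. None was lower, which is near the 2.13% of all genes. The ligand gene *Bmp4* was at 17.4 and 60.9 CPM, with 14.7 and 47.2 CPM in the other cells. The antagonists *Nog* (16.2 and 42.6 CPM) and *Grem1* (29.9 and 92.1 CPM) were also higher distally, whereas the other cells had 13.5 and 9.41 CPM of *Nog* and 14.8 and 13.3 CPM of *Grem1*. Ligand and antagonist genes were hence both higher on the distal side.

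In the Wnt lists the segment calls were *Wnt4*, *Ror1*, *Nkd1* and *Tnfrsf19*, all higher in distal dermal fibroblasts, and with TMM scaling *Nkd1* and *Tnfrsf19* fell below 2-fold. *Wnt4* had a ratio of 2.22 (2.08 to 2.36) in dermal fibroblasts, while in the other cells it was lower distally (46.6 and 21.6 CPM). In the FGF pathway *Fgfr1* (213 and 549 CPM), the feedback gene *Dusp6* (6.77 and 17.7 CPM) and *Etv1* (6.89 and 22.7 CPM) were higher and *Fgfbp1* lower. In the other cells the ratios of *Fgfr1* and *Etv1* were 1.88 and 2.12. Among skin factors *Runx1* was at 97.4 and 362 CPM, a ratio of 3.72 (3.55 to 3.89) beside 2.84 in the other cells, and *Trps1* at 94.0 and 264 CPM (2.81 beside 2.58). *Bcl11a* and *Prrx2* were also called, but not with TMM scaling. *Ptch1* was at 52.2 and 125 CPM, with 16.4 and 37.5 CPM in the other cells. Most of these calls had a difference of the same direction in the other cells, with *Wnt4*, *Nog*, *Grem1* and *Dusp6* (10.5 and 5.94 CPM) as those that did not.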

How the data were processed

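The authors aligned reads to a modified mm10 reference with Cell Ranger (3.0.2 proximal, 6.0.1 distal, per the file headers) and deposited raw UMI counts per gene and cell for 8 libraries. The E16.5 libraries held 236408650 (proximal) and 160375326 UMIs (distal) in 11716 and 9061 barcodes. Barcodes with at least 3000 UMIs and at most 10% mitochondrial UMIs were kept. UMIs were summed over the cells of a group and given as CPM with exact Poisson intervals. Shares have Clopper-Pearson intervals and ratios exact conditional intervals. The difference of shares has an approximate interval, by Newcombe's method on the exact limits. A gene was measured at 10 CPM or more in the higher group and called at a 2-fold ratio of CPM + 1. Named genes are the 12 with the largest ratio each way at 20 CPM or more (6 each way within subsets, 8 by variance), leaving out rule, haemoglobin, mitochondrial, ribosomal, sex-linked and added genes, plus list members past 2-fold and examples. A few of these genes are not reported here. Members and lists were chosen with earlier results of these data known. The comparison with universal fibroblasts names genes by the same ratios. The segment comparison also names 12 genes each way ranked without epithelial cells and without the genes they led, set after the values were seen. Doublets were not removed, since Scrublet called 248 proximal cells and 0 of 8447 distal cells. Alternatives changed the rule to 3 or 5 genes, thinned cells, left out epithelial cells or high Scrublet scores, moved the level filter, and scaled with TMM (edgeR 4.0.16, R 4.3.3). Scripts used Python 3.11.15, numpy 2.4.6, scipy 1.17.1, pandas 2.3.3 and scanpy 1.11.5 and were tested on simulated data. Promoter windows came from RefSeq tables (GRCm38.p6), where 198 of the 283 genes were matched.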

Additional observations from a re-analysis of the deposited data

Results flagged for a closer look

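*Sox6*, which encodes a transcription factor of cartilage and other tissues, stood on opposite sides in the 2 libraries when set against all other cells. In the proximal library it was lower in dermal fibroblasts (2.61 CPM, 2.00 to 3.36) than in the other cells (14.002 CPM, 13.5 to 14.5), a log2 ratio of -2.05. In the distal library it was higher in dermal fibroblasts (48.7 CPM, 45.9 to 51.6) than in the other cells (17.2 CPM, 16.5 to 17.9), a log2 ratio of 1.45. The difference between the libraries was not tested, since each segment was 1 library. Without epithelial cells the log2 ratios were -2.47 and 1.49. Apart from haemoglobin genes, whose distal UMIs came almost entirely from 1 cell, it was the only measured gene past 2-fold in opposite directions at a minimum of 10 CPM. That minimum was chosen after the values were seen, and at 20 CPM there was none. Against universal fibroblasts instead of all other cells, *Sox6* was 1.25-fold higher in proximal and 14.3-fold higher in distal dermal fibroblasts. The opposite directions were thus not seen with that comparator. The other cells held 1116 proximal and 368 distal cartilage cells, and their part in the *Sox6* ratios was not tested.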

How the results depend on the processing

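No paired analysis was possible because each segment was 1 library, and leaving out a replicate was not possible for the same reason. Of 67 recomputed summary values 47 stayed within their limits. The limit was the 95% interval of the reported value for a share or difference and 1.5 times the reported count for a count. Only the share difference, distal minus proximal, has a direction that could change, and it stayed positive in each alternative in which it was recomputed. With 3 of 7 rule genes the shares were 14.6% (proximal) and 20% (distal), a difference of 5.38 points, and with 5 of 7 they were 5.92% and 9.4%. With the rule applied to thinned cells the shares were 0.891% and 1.36%, a difference of 0.47 points, and 548 genes were higher and 291 lower in distal than in proximal dermal fibroblasts. With a level filter of 50 CPM, 109 genes were higher and 129 lower in dermal fibroblasts, and 129 higher and 62 lower in distal ones. With no level filter these counts were 430, 730, 561 and 468. Leaving out the 6% of cells with the highest Scrublet scores, chosen after seeing the data, gave a proximal share of 9.39%. Leaving out genes led by epithelial cells, also chosen afterwards, left 116 genes lower in distal dermal fibroblasts. Of 747 recomputed ratios of named genes 732 kept their direction and stayed at least 2-fold. Those that reversed, all with epithelial cells left out, were *Asprv1* (proximal log2 ratio 0.06), *Krt1* (0.05 proximal, 0.11 distal) and *Calm4* (0.22 distal). *Hapln1* fell below 2-fold in the distal library with 3 of 7 rule genes (-0.86), and *Orm1* between segments after thinning (-0.71) or without epithelial cells (-0.84). The other causes were not tested. The counts of 1 or 2 UMIs behind *Orm1*, *Ifi202b* and *Krt77* limit their ratios.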

Other observations

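Haemoglobin UMIs in distal dermal fibroblasts came almost entirely from 1 cell, which held 11398 of 11514, and 5 distal dermal fibroblasts held 10 or more. Proximal dermal fibroblasts held 92 haemoglobin UMIs, 54 of them in 1 cell. *Xist*, the RNA of the inactive X chromosome, was at 413 CPM in proximal and 801 CPM in distal dermal fibroblasts, and the Y-linked gene *Ddx3y* at 60.03 and 54.6 CPM, so both pools held transcripts of both kinds. Dividing dermal fibroblasts, with 3 or more of 8 genes of dividing cells, numbered 466 in the proximal and 376 in the distal library. Their median depth was 23075 and 22874 UMIs, against 15347 and 15805 UMIs in the other dermal fibroblasts. *Hist1h1b*, a linker histone gene, was at 940 against 9.89 CPM in the proximal and 2597 against 19.4 CPM in the distal library, and *Mxd4*, a gene of cells leaving the cycle, at 86.9 against 167 CPM and 87.2 against 172 CPM.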
